A study of Mus musculus with 6 samples.

Results

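The C1q/TNF-related proteins are a family of secreted proteins with a globular C1q domain and, in most members, a collagen-like stalk. The C1q domain is the fold that they share with complement C1q, with adiponectin and, in shape, with tumor necrosis factor. The 8 genes followed here, C1qtnf1, C1qtnf2, C1qtnf3, C1qtnf4, C1qtnf5, C1qtnf6, C1qtnf7 and C1qtnf12, were picked by gene symbol from the 46517 genes counted in 6 cultures of mouse RTECs, the epithelial cells that line the renal tubule. They were proposed with the difference between TGF-β1–treated and control (CTL) cultures already known, so their fold changes and calls are given as a description, without p-values. Of the 8, 7 had enough reads for a test and 1, C1qtnf5, had none.

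Most members of the family assemble as trimers and larger oligomers through the collagen stalk, and members are released into blood or the surrounding matrix. Several are made by fat, cartilage or vessel wall cells, and they are best known for effects on glucose and lipid metabolism, on vascular tone and on complement. TGF-β1 is the principal cytokine of renal fibrosis, and tubule cells given it lose epithelial features and make extracellular matrix.

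RNA sequencing of poly(A) RNA was performed on 3 CTL cultures and 3 cultures given 50 ng/ml TGF-β1 for 24 h. All 6 came from kidneys of wild-type FvB mice, which the sample labels describe as 4 to 6 weeks old. Every culture was grown in RPMI with 10% serum and 20 ng/ml EGF and then held without serum for 24 h before the treatment period, so CTL cells are serum-starved primary cells and not freshly isolated tubules. The study's methods give a younger age range than the labels and call the mice male, and neither source says whether the cultures came from separate animals, so a p-value here measures only the spread between these samples.

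Totals on genes were 28313080 to 34183497 reads per library. CPM is a count scaled by its library's total, here with the TMM correction described below. Transcripts from 4 Y-linked genes summed to 151 and 142 CPM in replicate 2 of CTL and TGF-β1, and to 0.06 to 0.17 CPM in the other 4 libraries. Replicates 1 and 3 thus held almost none, although the methods call the mice male. Replicate 2 also stood apart in tissue markers. A list of 12 fibroblast and pericyte genes summed to 1227, 2766 and 1198 CPM in CTL replicates 1, 2 and 3 and to 1599, 3558 and 1195 CPM in TGF-β1 replicates 1, 2 and 3. None of the 12 was at 0 in all libraries, and Lum and Gli1 were too low to test. A list of 7 epithelial genes moved the other way, with 1963, 1060 and 2637 CPM in CTL and 1786, 916 and 2185 CPM in TGF-β1. Leukocyte genes summed to at most 9.33 CPM and endothelial genes to at most 4.83 CPM in any library. Of 6 adipocyte genes, 5 (Adipoq, Lep, Plin1, Cidec and Fabp4) had at most 3 reads in every library. In most lists, but not in all, the summed levels of nephron markers did not overlap between the groups. A list of 10 proximal tubule genes summed to 77.97 to 93.5 CPM in CTL and 35.8 to 49.7 CPM with TGF-β1. Of the 4 tested, Lrp2 and Aqp1 fell (log2 fold changes -0.93 and -2.91), and 6.69% of all genes tested were called lower. Slc34a1, Slc5a2, Slc22a6, Slc27a2, Miox and Kap were too low to test. A list of 7 collecting duct genes summed to 9.66 to 22.0 CPM in CTL and 30.0 to 57.4 CPM with TGF-β1. This was carried by Hsd11b2, which rose by 1.65 on the log2 scale, with Slc4a1 and Foxi1 at no more than 3 reads. Only 2 of the 7 were tested, with a median log2 fold change of -0.06. In the fit with the replicate number as a block, 1 was called higher and 1 lower, beside 15.1% and 19.1% of all genes tested. The 5 podocyte genes summed to 446 to 683 CPM in CTL and 358 to 417 CPM with TGF-β1. Of these, 3 were tested, and none was called without the block. With the block all 3 were called lower, as were 19.1% of all genes tested. A list of 8 genes of the thick ascending limb and distal tubule overlapped between groups. It summed to 5.13 to 10.6 CPM in CTL and 2.65 to 5.93 CPM with TGF-β1. Of its 3 tested genes none was called without the block, and 2 were lower with it. The proximal tubule, collecting duct and podocyte sums did not overlap between groups, as the levels of C1qtnf1, C1qtnf3 and C1qtnf7 did not. The groups did not overlap for 35.1% of all genes tested, so nothing is read from this. The part of these sums in the members' values was not tested. In such mixed bulk cultures, fewer cells of a type and less RNA per cell cannot be told apart.

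The stretches of DNA before the RefSeq starts of 3 members are shown because these members stand for the 3 patterns in the data: C1qtnf3 was higher with TGF-β1, C1qtnf7 was lower, and C1qtnf6 was not called in either direction. The sequences are from RefSeq promoter windows on GRCm38.p6, which list 5 of the 8 members (C1qtnf2, C1qtnf3, C1qtnf5, C1qtnf6 and C1qtnf7). C1qtnf1, C1qtnf4 and C1qtnf12 are named only. Each is written 5′ to 3′ on the gene's own strand, with exon bases of the GENCODE annotation left out. For C1qtnf6 the RefSeq start is an internal one, so its stretch lies inside the gene bounds given for it below, downstream of the outermost annotated start at 78531416 and outside every annotated exon. Capitals mark matches to the motifs named in the next paragraph. They come from chr15:10952082-10952331 (plus strand, C1qtnf3), chr5:43515319-43515537 (plus strand, C1qtnf7) and chr15:78529652-78529901 (minus strand, C1qtnf6).
C1qtnf3: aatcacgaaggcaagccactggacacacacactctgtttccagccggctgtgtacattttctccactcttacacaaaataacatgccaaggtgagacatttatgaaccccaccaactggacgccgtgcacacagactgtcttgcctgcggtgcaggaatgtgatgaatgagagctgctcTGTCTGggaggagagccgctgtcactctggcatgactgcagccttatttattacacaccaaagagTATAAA
C1qtnf7: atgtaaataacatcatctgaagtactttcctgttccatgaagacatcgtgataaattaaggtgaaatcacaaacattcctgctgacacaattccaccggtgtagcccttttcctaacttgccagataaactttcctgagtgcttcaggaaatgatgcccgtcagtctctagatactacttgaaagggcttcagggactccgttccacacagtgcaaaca
C1qtnf6: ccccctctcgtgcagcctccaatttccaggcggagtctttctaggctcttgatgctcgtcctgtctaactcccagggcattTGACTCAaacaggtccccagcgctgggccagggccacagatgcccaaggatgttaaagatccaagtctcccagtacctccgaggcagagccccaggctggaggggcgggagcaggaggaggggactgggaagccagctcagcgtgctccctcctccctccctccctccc

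Motifs were looked for on both strands of the 300-base windows, from 250 bases before to 50 bases after the RefSeq start, and positions are counted back from the start, with -1 the last base before it. The motifs were the Smad palindrome GTCTAGAC, present in 0.213% of 32851 windows of this length, the CAGA box core CAGACA (reverse complement TGTCTG, 21.0%), the AP-1 site TGANTCA (7.81%), the RBPJ site GTGGGAA (6.38%), and TATAAA, the core of the TATA box (13.6%), which was added after the sequences had been read. No pair of these motifs overlapped in a member's window. C1qtnf3 held TGTCTG at -71 and TATAAA at -6, directly before the start. C1qtnf6 held TGACTCA, an AP-1 match, at -169 from its internal start. In C1qtnf7 none of the 5 motifs was found. The CAGA core also stood at -228 in C1qtnf2 and at -212 in the window listed for C1qtnf5. That window lies at the 5′ end of Mfrp, a gene that overlaps C1qtnf5. These matches describe letters in a window and say nothing of binding.

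Levels in the cultures are given as CPM after TMM scaling, a correction for differences in library composition. Within the family, 1 member, C1qtnf3, was higher with TGF-β1 and 2, C1qtnf1 and C1qtnf7, were lower at an adjusted p-value under 0.05 in edgeR's quasi-likelihood test. The other 4 tested members did not pass. Over all 15862 genes tested, 11.7% passed, 5.00% higher and 6.69% lower. With the replicate number as a block, the fit that takes the pairing of the cultures from the labels, the same 3 members were called, against 34.2% of all genes (15.1% higher and 19.1% lower). The groups did not overlap for 3 of the 7 members and for 35.1% of all genes. Nothing is read from these shares, since the family was proposed with this contrast known. The median log2 fold change (TGF-β1 over CTL) was -0.14 over the 7 members and -0.003 over all genes tested.

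C1qtnf3 (ENSMUSG00000058914), placed at 10952332 to 10980150 of chromosome 15 (GRCm38, plus strand, the build also of the positions that follow), encodes a hormone also called cartonectin, first described in growing cartilage and later in fat. It had 37, 124 and 24 reads in CTL replicates 1, 2 and 3 and 540, 1032 and 534 reads in the TGF-β1 replicates of the same numbers. On the CPM scale the CTL cultures were at 1.13, 3.77 and 0.83 and the TGF-β1 cultures at 17.3, 33.8 and 15.8. Every treated culture was above every control culture, and replicate 2 was the highest in each group. The group level went from 1.91 ± 1.62 CPM in CTL to 22.3 ± 9.95 CPM with TGF-β1 (SD, n = 3 each), a log2 fold change of 3.53 (standard error 0.63), or 11.6-fold. Among the 15862 genes tested, this was the 6th highest log2 fold change. Same-numbered pairs differed by 3.94, 3.16 and 4.26 on the log2 scale, and the fit with the replicate number as a block gave 3.61 with a standard error of 0.18. In fits without the block, the C1qtnf3 call was lost without CTL replicate 1 (log2 fold change 3.26), CTL replicate 3 (3.19) or TGF-β1 replicate 1 (3.70). Leaving out CTL replicate 2 alone gave 4.50, and leaving out both replicate 2 cultures gave 4.07, each still called. Over all genes, the fits without a single culture called 109 to 516 higher and 186 to 807 lower, against 793 and 1061 with all cultures. These counts hold also for such fits of C1qtnf7 and C1qtnf1 below.

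**Figure D1:**
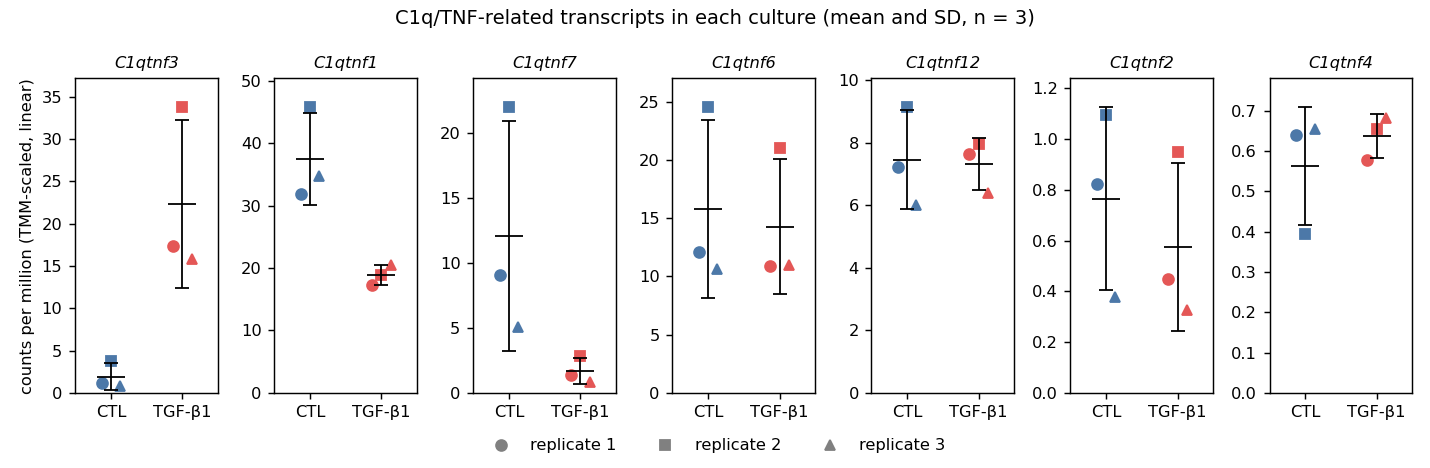
Level of each tested member in each culture, in TMM-scaled CPM on linear axes that start at 0 and differ between panels; circles, squares and triangles are replicates 1, 2 and 3, and the bars are mean and SD over 3 cultures. C1qtnf3 sits at 0.83 to 3.77 in CTL and 15.8 to 33.8 with TGF-β1, C1qtnf1 and C1qtnf7 are lower in all treated cultures, and the groups overlap for the other 4 members.

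C1qtnf7 (ENSMUSG00000061535, chromosome 5, 43515538 to 43618803, plus strand) encodes one of the least studied secreted members, linked to glucose handling. Its reads numbered 298, 724 and 148 in CTL replicates 1 to 3 and 42, 86 and 29 in the TGF-β1 cultures. These counts correspond to 9.09, 22.0 and 5.10 CPM in CTL and 1.35, 2.81 and 0.86 CPM with TGF-β1. The lowest control was above the highest treated culture, and replicate 2 was again on top in both groups. The mean went from 12.1 ± 8.83 to 1.67 ± 1.02 CPM (SD, n = 3 each), a log2 fold change of -2.86 (standard error 0.69), or 7.24-fold lower, the 67th lowest value of all genes tested. The spread between CTL cultures was large, but the pairs were close, with log2 ratios of -2.75, -2.97 and -2.57. With the replicate block the log2 fold change was -2.81 and its standard error 0.12. Without the block the C1qtnf7 call survived the loss of CTL replicate 3 (-3.22) and was lost without CTL replicate 1 (-3.02), CTL replicate 2 (-2.09), TGF-β1 replicate 1 (-2.71), TGF-β1 replicate 2 (-3.46) or TGF-β1 replicate 3 (-2.53). Leaving out both replicate 2 cultures gave -2.69, which was called.

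C1qtnf1 (ENSMUSG00000017446, chromosome 11, 118428203 to 118449963, plus strand) encodes a vascular and adipose factor that binds collagen and restrains platelet activation. It was the member with the most reads in CTL, at 1047, 1509 and 1010 in replicates 1, 2 and 3. The TGF-β1 cultures had 540, 579 and 691 reads. In CPM these were 31.9, 45.8 and 34.8 against 17.3, 18.9 and 20.5, with no overlap between groups. The level went from 37.5 ± 7.33 CPM to 18.9 ± 1.58 CPM (SD, n = 3 each), a log2 fold change of -0.99 (standard error 0.15), or 1.98-fold lower. Pairs differed by -0.88, -1.27 and -0.76, so replicate 2 had the largest fall, and the blocked fit gave -0.98 with a standard error of 0.10. Without the block, the C1qtnf1 call was lost in 1 of the 6 fits without a single culture, that without TGF-β1 replicate 1 (-0.92). It was kept without both replicate 2 cultures (-0.82). An antisense gene, Gm11747, covers 20.5% of the exon bases of C1qtnf1 and had 0 to 2 reads per library. Without a stated strand setting, reads from the shared stretch cannot be told apart.

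C1qtnf6 (ENSMUSG00000022440, chromosome 15, 78523346 to 78531416, minus strand) encodes a protein that dampens the alternative complement pathway. CTL replicates 1, 2 and 3 had 397, 808 and 308 reads and TGF-β1 replicates 339, 642 and 369. At 12.1, 24.5 and 10.6 CPM in CTL against 10.9, 21.0 and 10.9 CPM with TGF-β1, the groups overlapped and replicate 2 stood well above the others in each. The means were 15.8 ± 7.64 and 14.3 ± 5.83 CPM (SD, n = 3 each), and the log2 fold change was -0.14 (standard error 0.41). The difference between replicates was therefore larger than that between groups. With the block the standard error was 0.08 around a value of -0.12, and the member was still not called.

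C1qtnf12 (ENSMUSG00000023571, chromosome 4, 155962318 to 155966629, plus strand) encodes adipolin, an insulin-sensitizing hormone of fat. Reads were 237, 301 and 174 in CTL and 238, 243 and 215 with TGF-β1, which gave 7.23, 9.14 and 5.99 CPM against 7.64, 7.95 and 6.38 CPM. The ranges overlapped, and both groups had replicate 2 highest and replicate 3 lowest. Its log2 fold change of -0.03 (standard error 0.18, or 0.10 with the block) was the nearest to 0 among the members.

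C1qtnf2 and C1qtnf4 had the fewest reads of the tested members. C1qtnf2 (ENSMUSG00000046491, chromosome 11, 43474276 to 43491525, plus strand), whose product acts on lipid metabolism, had 27, 36 and 11 reads in CTL and 14, 29 and 11 with TGF-β1. Its groups overlapped at 0.38 to 1.09 and 0.33 to 0.95 CPM, with replicate 2 highest in both, and the log2 fold change was -0.43 (standard error 0.52). C1qtnf4 (ENSMUSG00000040794, chromosome 2, 90885860 to 90890525, plus strand) is unusual in the family for carrying a pair of C1q domains and is known for action in the hypothalamus. It had 21, 13 and 19 reads in CTL and 18, 20 and 23 with TGF-β1, and was the only tested member in which CTL replicate 2 was the lowest control. Its groups overlapped and its log2 fold change was 0.18 (standard error 0.26).

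C1qtnf5 (ENSMUSG00000079592, chromosome 9, 44107245 to 44109187, plus strand) encodes a protein of the retinal pigment epithelium in which mutation causes late-onset retinal degeneration. It had 0 reads in all 6 libraries and was not tested. A count of 0 allows up to 3 reads, or 0.0878 to 0.106 CPM without TMM scaling, depending on the library. This limit covers counting error only. It also applies only to reads that the counting could give to C1qtnf5: 100% of its exon bases lie within exons of Mfrp, on the same strand, and 40.8% also within Gm20444. The counting program set aside reads on more than 1 gene, which came to 2.53 to 2.65% of the reads on genes, so under this annotation reads of a C1qtnf5 transcript would have been set aside. Mfrp, the frizzled-related membrane protein whose transcript carries C1qtnf5 as a second reading frame, had 0, 3 and 0 reads in CTL and 6, 4 and 4 with TGF-β1, and Gm20444 had 0 in every library.

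Levels of different members were compared per kb of union exon, as CPM per kb. In CTL, C1qtnf1 led at 11.98 ± 2.34 (SD, n = 3), and its 3 values lay above those of C1qtnf6, the next in order. C1qtnf6 (5.83 ± 2.83), C1qtnf12 (5.46 ± 1.16), C1qtnf7 (2.90 ± 2.12), C1qtnf3 (0.75 ± 0.63), C1qtnf2 (0.58 ± 0.28) and C1qtnf4 (0.44 ± 0.11) followed, and each overlapped its neighbor in this order. With TGF-β1, C1qtnf3 had the highest mean, 8.72 ± 3.89 CPM per kb, then C1qtnf1 at 6.04 ± 0.51, C1qtnf12 at 5.36 ± 0.61 and C1qtnf6 at 5.28 ± 2.16. The values of these 4 overlapped from one to the next, so their order within the treated cultures is not fixed by these data. All 4 lay above C1qtnf4 (0.49), C1qtnf2 (0.44) and C1qtnf7 (0.40), which overlapped in turn. Dividing by the longest annotated transcript put C1qtnf6 (5.94) before C1qtnf12 (5.57) in TGF-β1 cultures and raised C1qtnf1 to 14.8 in CTL and 7.47 with TGF-β1. It left the rest of the order as it was.

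**Figure D2:**
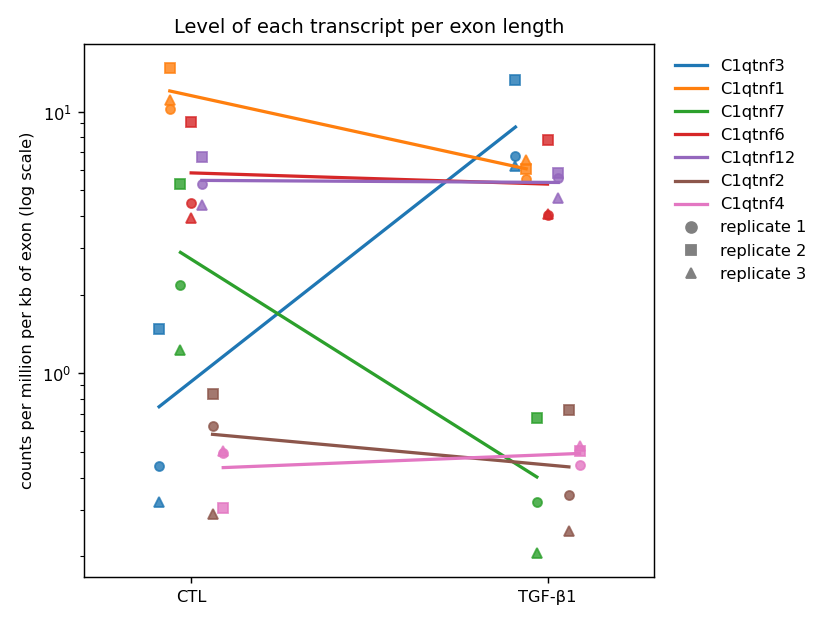
Level of each member per kb of union exon, on a log axis, in CTL and TGF-β1 cultures; points are cultures, shaped by replicate number, and lines join the group means over 3 cultures. C1qtnf3 runs from 0.75 to 8.72 and crosses the lines of C1qtnf7 (2.90 to 0.40) and C1qtnf1 (11.98 to 6.04), while C1qtnf6 and C1qtnf12 stay near 5; C1qtnf5, at 0, is not drawn.

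The make-up of the family pool differed more between groups than its size. Summed over the 8 members, the level was 27.9 ± 9.04 CPM per kb in CTL and 26.7 ± 6.95 CPM per kb with TGF-β1 (SD, n = 3 each), and the groups overlapped. The share of C1qtnf3 in this sum was 2.397% ± 1.27 in CTL and 31.7% ± 5.55 with TGF-β1. C1qtnf1 held 44.1% ± 6.48 and then 23.5% ± 5.89, and C1qtnf7 held 9.54% ± 4.09 and then 1.42% ± 0.51. The shares of C1qtnf6 (20.2% and 19.3%) and C1qtnf12 (20.0% and 20.6%) were near each other in both groups. The log2 ratio of C1qtnf3 to C1qtnf1 per kb was -4.32 ± 0.91 in CTL and 0.45 ± 0.62 with TGF-β1, and its highest CTL value was -3.31 against a lowest treated value of -0.08. These shares restate the fold changes by which the family was proposed and are no separate evidence of them.

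Across replicates, 5 of the 7 tested members (C1qtnf2, C1qtnf3, C1qtnf6, C1qtnf7 and C1qtnf12) were highest in replicate 2 of both groups. The log2 CPM of replicate 2 exceeded the mean of replicates 1 and 3 by 1.96 in CTL and 1.03 with TGF-β1 for C1qtnf3, by 1.69 and 1.39 for C1qtnf7, and by 1.11 and 0.95 for C1qtnf6. For C1qtnf2 it was 0.97 and 1.31. The differences were 0.47 and 0.19 for C1qtnf12 and 0.46 and 0.01 for C1qtnf1, and C1qtnf4 had -0.71 and 0.06. Replicate 2 was the replicate with Y-linked transcripts, with the highest summed fibroblast and pericyte level and with the lowest summed epithelial level, and the part of these in the members' levels was not tested. Without both replicate 2 cultures C1qtnf3, C1qtnf7 and C1qtnf1 were still called, and the log2 fold changes of C1qtnf6 and C1qtnf12 were -0.06 and 0.08.

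**Figure D3:**
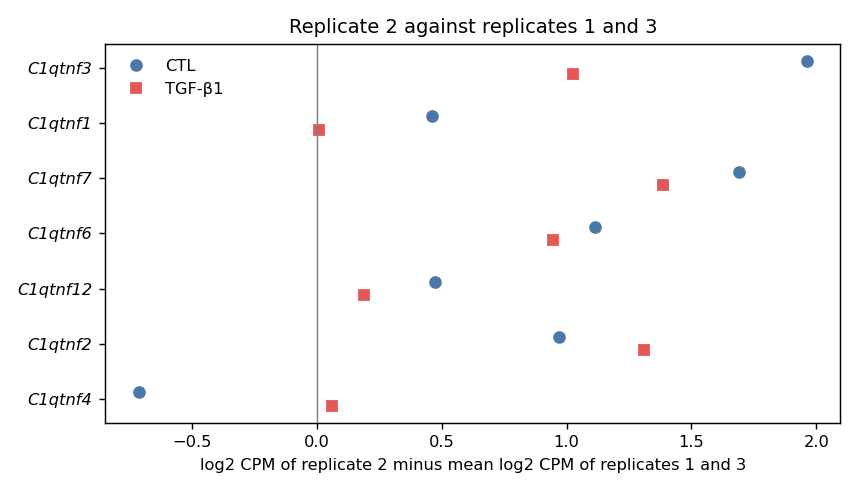
Difference in log2 CPM between replicate 2 and the mean of replicates 1 and 3 for each tested member, circles for CTL and squares for TGF-β1. C1qtnf3 and C1qtnf7 lie 1.03 to 1.96 above 0 in both groups, C1qtnf6 and C1qtnf2 near 1, and C1qtnf1, C1qtnf12 and C1qtnf4 nearer to 0.

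Other genes with a C1q domain were examined as relatives of the family. Like the members, this list was chosen with earlier results of these data known. Its p-values are therefore a description and no independent support. Of 23 listed, 12 were tested, 9 had at most 3 reads in every library, among them C1qtnf9 and adiponectin (Adipoq), and 2 (Cbln3 and Mmrn2) were below the filter. In edgeR's quasi-likelihood test 2 rose and 1 fell with TGF-β1, and the median log2 fold change of the 12 was 0.32. Col8a2, the α2 chain of the short-chain collagen type VIII, rose from 2.14 ± 0.70 to 14.1 ± 8.50 CPM (SD, n = 3 each), by 2.72 ± 0.50 on the log2 scale (SE, edgeR adjusted p = 0.0254). Erfe, which encodes erythroferrone, a hormone of red cell precursors that lowers hepcidin, rose from 1.34 ± 0.09 to 2.62 ± 0.14 CPM, by 0.96 ± 0.14 on the log2 scale (SE, edgeR adjusted p = 0.0129). C1ql3, a secreted ligand at synapses, fell from 1.48 ± 0.12 to 0.66 ± 0.14 CPM, a change of -1.16 ± 0.21 on that scale (SE, edgeR adjusted p = 0.0237).

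These calls were sensitive to single cultures, as calls over all genes were. Without CTL replicate 1, 109 genes were called higher and 186 lower of 16150 tested. Without TGF-β1 replicate 1, the counts were 128 and 193 of 16201, against 793 and 1061 of 15862 with all cultures. The Erfe call was lost without CTL replicate 1 (log2 fold change 0.93) or TGF-β1 replicate 1 (0.97). Col8a2 kept its call only without TGF-β1 replicate 2 (2.10) or TGF-β1 replicate 3 (3.00), and C1ql3 only without TGF-β1 replicate 2 (-1.30). The fit with the replicate block called 4 genes higher and 5 lower of the 12 tested in this list, beside 34.2% of all genes called in that fit and 11.7% in the fit without the block, which called 3 of the 12. It added Emilin1 and Col8a1 among the higher genes, both coding for matrix proteins of the vessel wall and other tissues (log2 fold changes 0.80 and 0.44, adjusted p = 0.0008 and 0.0003 from edgeR with the block). It added Col10a1, the hypertrophic cartilage collagen (-1.33), C1ql1 (-1.19), Emilin2 (-0.99) and Caprin2 (-0.29) among the lower genes. Col8a1 was the most abundant gene of the list, at 236 ± 76.9 CPM in CTL and 321 ± 111 CPM with TGF-β1 (SD, n = 3 each), and it was not called without the block. The complement C1q chains C1qa, C1qb and C1qc, products of macrophages, were not called in either fit.

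**Figure D4:**
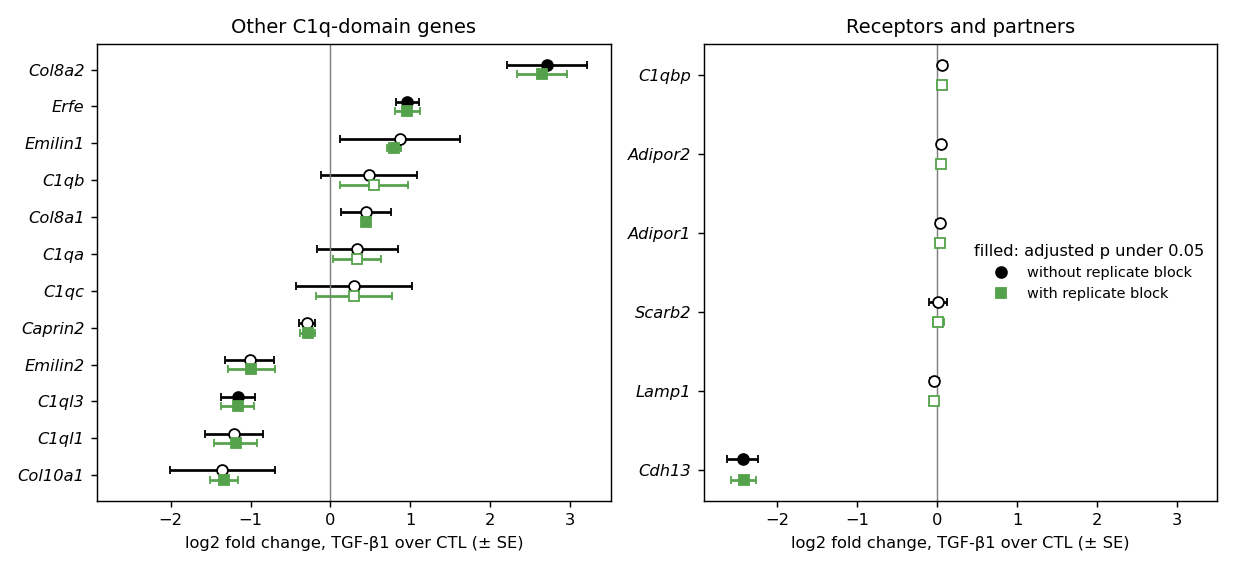
Log2 fold change (TGF-β1 over CTL) with its standard error for the tested genes of the other C1q-domain list (left) and of the receptor and partner list (right), without the replicate block (black circles) and with it (green squares); filled symbols passed an adjusted p-value of 0.05 in edgeR. Cdh13 lies at -2.43 while the other 5 receptor and partner genes lie within 0.07 of 0, and more of the C1q-domain genes are filled with the block than without.

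On the receiving side, 9 genes reported as receptors or binding partners of these proteins, of adiponectin or of C1q were listed and 6 were tested. This list too was chosen with earlier results of these data known, so its p-values are a description only. Cdh13, which encodes T-cadherin, a membrane-anchored receptor for large adiponectin oligomers, was the gene that passed. It was 1 of 6 both without and with the block, beside 11.7% and 34.2% of all genes. Nothing is read from this count. Its CPM values were 21.8, 22.1 and 15.9 in CTL and 4.27, 2.91 and 3.88 with TGF-β1, without overlap. Cdh13 fell from 19.9 ± 3.47 to 3.69 ± 0.70 CPM (SD, n = 3 each), a log2 change of -2.43 ± 0.20 (SE, edgeR adjusted p = 0.0032), and it was called in all 6 fits without a single culture. The adiponectin receptors Adipor1 and Adipor2 had log2 fold changes of 0.03 (standard error 0.05) and 0.05 (0.04). The lysosomal membrane proteins Lamp1 and Scarb2, both described as C1qtnf3 binders, had -0.04 (0.05) and 0.01 (0.12), and C1qbp, which binds the C1q globular head, had 0.06 (0.05). None of these 5 passed with or without the block. Lamp1 was the most abundant of the list, at 913 ± 16.4 CPM in CTL and 890 ± 11.6 CPM with TGF-β1 (SD, n = 3 each). The relaxin receptor Rxfp1, the C1ql receptor Adgrb3 and Mfrp had at most 9, 5 and 6 reads in any library and were not tested.

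The genomic neighbors of the members were the nearest 2 protein-coding genes on each side that did not overlap the member. They gave 26 tested genes of 32. Of these, 1 rose and 1 fell, with a median log2 fold change of -0.03, and with the block 2 rose and 8 fell. Calls were thus made for 2 and 10 of the 26, where 11.7% and 34.2% of all genes were called, so these shares are near the background. Nearest to C1qtnf3, 1606 bases away, was Amacr, a peroxisomal racemase, which had 8.81 ± 0.59 CPM in CTL and 9.57 ± 0.56 CPM with TGF-β1 (SD, n = 3 each) and differed by 0.12 ± 0.09 on the log2 scale (SE, edgeR adjusted p = 0.465). The genes called without the block were Cc2d2a, a ciliary transition zone gene 43543 bases from C1qtnf7, at -0.52 ± 0.12 (SE, edgeR adjusted p = 0.0472), and Cbl, a ubiquitin ligase gene 33789 bases from C1qtnf5, at 0.24 ± 0.06 (SE, edgeR adjusted p = 0.0435). Amacr, Cc2d2a and Cbl were picked out after their values had been seen. The Cc2d2a call was kept in 1 of the 6 fits without a single culture, that without CTL replicate 3 (-0.64), and the Cbl call in none, at 0.20 to 0.26. Lgals3bp, a secreted galectin-3 ligand 26111 bases from C1qtnf1, had -0.92 and passed with the block (adjusted p = 0.0001 from edgeR) but not without it (adjusted p = 0.0705 from edgeR). Mcam, an adhesion molecule gene 25282 bases from C1qtnf5, was the most abundant neighbor, at 348 ± 47.7 and 459 ± 26.3 CPM, and passed with the block and in DESeq2 but not in edgeR without the block.

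The genes whose profiles were most like those of the members were ranked by Pearson's r of log2 CPM over the 6 libraries among 10890 tested genes with a mean of at least 5 CPM. The libraries share a treatment and replicate numbers, and r is given as a description. For C1qtnf3 they were Gpc1, a glypican gene (r = 0.998), and Myo7a, an unconventional myosin gene (r = 0.996). Their own log2 fold changes were 0.55 and 0.90, against 3.53 for C1qtnf3, so likeness of profile was not likeness of size. For C1qtnf7 they were Dach1 and Islr (r = 0.997 each), with log2 fold changes of -0.82 and -2.21. Islr, a marker of mesenchymal stromal cells, had 10.7, 24.1 and 6.89 CPM in CTL and 2.57, 4.38 and 2.08 CPM with TGF-β1, and so had replicate 2 highest in both groups, as C1qtnf7 did. For C1qtnf1 they were Tmem219 (r = 0.997) and Osbpl2 (r = 0.996), with log2 fold changes of -0.19 and -0.12. The other pairs were Meis1 and Olfml2b for C1qtnf6, Zfp623 and Rcan1 for C1qtnf2, Fam98b and Sltm for C1qtnf4, and Pias3 and Ltbp3 for C1qtnf12, with r from 0.977 to 0.998.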

How the data were processed

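The authors trimmed 50-bp single-end reads with Trim Galore, aligned them to GRCm38 with STAR 2.4.1d and counted them per gene with HTSeq 0.6.1, and deposited raw counts without normalization. The annotation release and the strand setting are not given in the sources used here. HTSeq's 5 summary lines were left out of totals; reads on no gene came to 5.58 to 6.65% of the reads on genes and ambiguous reads to 2.53 to 2.65%. Gene symbols, positions and exon lengths came from GENCODE M21, which matched 46005 of 46517 identifiers, and promoter windows from RefSeq (GRCm38.p6). Reads carried no molecular identifiers.

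Counts were analyzed in R 4.3.3 with edgeR 4.0.16 (filterByExpr, TMM, glmQLFit with robust estimation, glmQLFTest, two-sided, Benjamini-Hochberg adjustment over 15862 genes, threshold 0.05). The design had the condition only, since the study compared unpaired groups. Deviations from group means had a Pearson r of 0.34, 0.684 and 0.572 for the 3 same-numbered pairs of cultures, against -0.617 to 0.215 for the others. The labels' numbers were taken as the pairing. Replicates 1 and 3 were less clearly told apart, since their crossed pairs were also above 0 (0.215 and 0.144). Other settings tried were the replicate number as a block, DESeq2 1.42.0, scaling by RLE or by library size alone, keeping all genes with more than 1 count, and leaving out single cultures or both of a number. The fits that left out cultures had no block and so did not use the pairing. The models were tested on simulated counts. Named list genes were those past the threshold with or without the block, at most 12 by absolute log2 fold change, and the most abundant of each list. The members and lists were chosen with earlier results of these data known.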

Additional observations from a re-analysis of the deposited data

How the results depend on the processing

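Counts of calls are given as higher and lower with TGF-β1. The reported fit had 1 and 2 members, 2 and 1 other C1q-domain genes, 0 and 1 receptor and partner genes, and 1 and 1 neighbors. Without a filter beyond 1 count, members had 0 and 1 and 1 C1q-domain gene was higher, in a fit that called 711 and 957 of 24723 genes. The replicate block gave 4 and 5 C1q-domain genes and 2 and 8 neighbors, and changed no call of a member or receptor. DESeq2 gave 2 and 5 neighbors, and library size only, which moved the median of all genes to -0.08, gave 0 and 3. Over all 15862 genes tested, the reported fit called 793 and 1061 and the block 2388 and 3037. DESeq2 called 1201 and 1521 of them, and library size only 508 and 1467. Where other settings changed calls, the cause was not tested.

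Leaving out 1 culture, or both cultures of a number, gave 0 to 1 higher and 0 to 2 lower members and 0 to 4 and 0 to 2 C1q-domain genes. It gave 0 to 1 lower receptor and partner gene, and 0 to 1 and 0 to 4 neighbors. Over all genes these fits called 0 to 1084 higher and 0 to 1290 lower, of 15955 to 16212 tested. Without both replicate 1 cultures edgeR called 0 genes of 15961, with 1938 at an unadjusted p under 0.05. Without both replicate 3 cultures no member was called, and of 16023 genes 95 were called higher and 190 lower. Cdh13 was lost only without both replicate 1 cultures. Signs turned in uncalled genes. Leaving out 1 culture moved C1qtnf4 from -0.019 (CTL replicate 2 out) to 0.30, C1qtnf6 from -0.54 to 0.33 (CTL replicate 2 out, with 0.02 where TGF-β1 replicate 1 or 3 was out), C1qtnf12 from -0.16 to 0.15 (CTL replicate 2 out, with 0.065 where TGF-β1 replicate 3 was out), and Emilin1 from -0.14 (TGF-β1 replicate 2 out) to 1.69. With both replicate 2 cultures out, C1qtnf4 was -0.035 and C1qtnf12 0.081. C1qtnf2 and C1qtnf4 rest on 11 to 36 reads per library.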
